A study of Mus musculus with 40 samples.

Results

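Egr1, Egr2, Egr3, Nr4a1, Nr4a2, Nr4a3, Klf2, Klf4, Ier2 and Ier3 are early response genes, whose transcripts appear soon after a cell receives a signal. They were chosen by name, as the genes whose symbol in the annotation of the array is one of these 10, and make up 10 of the 29411 gene symbols on the array. Each had 1 probe, except Klf2 with 2 and Ier2 with 3, which gives 13 probes. The cells were subcutaneous stromal vascular cells (SVCs) of C57BL/6J mice, also called infiltrating macrophages by the submitters. RNA was hybridised to 1-colour Agilent arrays, of which 38 of 40 were used. Mice received low-fat control chow (LFC, 10% of calories from fat, 11 arrays), a high-fat diet with added sucrose (HFC, 60% of calories from fat, 11 arrays), and HFC with 5, 20 or 75 µg of the botanical formulation Kal-1 (HF5 with 6 arrays, HF20 with 5 and HF75 with 5). LFC and HFC were sampled on days 1, 6, 10 and 14 and at weeks 0, 3, 6, 9, 12, 15 and 18, and the Kal-1 groups from week 3 onwards, with weeks counted after day 14. The HF20 and HF75 arrays of week 18 had conflicting labels and were not used, so both doses end at week 15. Mice were weaned and 3 to 4 weeks old when the diets began.

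There was 1 array for each diet and labelled time point. Day 14 and week 0 fall at the same time by the count of weeks, but were kept as separate time points. The design text of the submitters speaks of 3 biological replicates per diet, while the labels give neither the number of mice behind an array nor separate cultures. Whether an array holds RNA pooled from several mice is therefore unknown, and p-values measure only the spread between arrays, while the SD of a group includes any change with time. SVCs are a mixed fraction, and in such bulk RNA a lower number of cells of a type cannot be told apart from less RNA per cell. Levels are log2 ratios of a spot's intensity to its own array's 75th percentile, so 0 is the brightness that 75% of probes do not exceed, and 1 unit is a 2-fold step. Levels of different genes come from different probes and are not set against each other.

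The marker genes did not describe a pure macrophage preparation. Of 10 macrophage markers, 8 to 10 were well above background on 35 arrays, and on the same arrays so were 7 to 8 of 8 fibroblast markers, 6 to 7 of 7 endothelial markers and 11 to 12 of 12 adipocyte markers. The other 3 arrays, all LFC, stood apart. LFC week 3 was dim, with 17.2% of probes well above background, and LFC day 14 had 9104 outlying spots. Their level ranks correlated with those of the other arrays at a median r of 0.45 and 0.443, against 0.834 to 0.945 elsewhere. LFC week 18 differed in its other markers, although all 10 macrophage markers were well above background on it. Its summed fibroblast level was 2.52, where the 35 arrays had 7.07 or more. Of the fibroblast markers Thy1 was at 2.44, while Dcn, Col3a1, Pdgfra and Lum were not well above background. The neutrophil granule genes Camp and Ngp were at 6.55 and 6.49, and the erythroid genes Slc4a1 and Alas2 at 6.66 and 6.41. The comparisons of LFC with HFC and of periods, which hold these arrays, are given with and without them.

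The Egr proteins are zinc finger transcription factors that link growth factor and stress signals to later gene expression. The Nr4a proteins are orphan nuclear receptors whose activity is set mainly by how much is made, and they are known to restrain inflammatory genes in macrophages. Klf2 and Klf4 are Krüppel-like factors, Klf2 best known from quiescent endothelium and T cells and Klf4 from epithelia, vessel walls and macrophages. Ier2 and Ier3 encode small nuclear and membrane-associated proteins of the same rapid response, and Ier3 is known for its part in cell survival. Serum response factor, which binds the CArG box, and CREB, which binds cAMP response elements with the core TGACG, are the textbook activators of this class, and Egr proteins themselves bind GCGGGGGCG.

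RefSeq promoter sequences of mouse build GRCm38.p6 were found for 7 of the 10 genes (none for Egr1, Egr3 and Ier2). The 250 bases before each start site were searched on both strands. TGACG was present before a start of 6 of the 7 genes (all but Ier3) and before 17.8% of all 32851 starts, GCGGGGGCG before 3 of 7 (Klf2, Klf4 and Nr4a1) and 2.57% of all starts, and the CArG box before 1 of 7 (Egr2) and 1.47% of all starts. A gene was counted if any of its starts had the motif, while the percentages count single starts, so their units differ. The 3 Nr4a genes each held 4 copies of TGACG, and their 250 bases are printed because the family shares this feature. The share over all starts counts any copy, so how common 4 copies are among them was not measured. For Egr2, the 30 bases around 1 CArG box are shown, since a copy of TGACG on the other strand lies close beside it. A different CArG box, 72 bases before another Egr2 start, had no TGACG in its 250 bases. Capitals mark matches to the motifs, which are descriptions of sequence and not measured binding sites.
Nr4a1, chr15:101266596-101266845, plus strand: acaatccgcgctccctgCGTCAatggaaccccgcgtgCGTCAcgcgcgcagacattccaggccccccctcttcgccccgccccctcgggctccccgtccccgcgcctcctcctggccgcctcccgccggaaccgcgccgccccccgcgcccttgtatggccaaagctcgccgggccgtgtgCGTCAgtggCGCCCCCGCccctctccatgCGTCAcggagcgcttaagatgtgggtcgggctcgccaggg
Nr4a2, chr2:57124004-57124253, minus strand: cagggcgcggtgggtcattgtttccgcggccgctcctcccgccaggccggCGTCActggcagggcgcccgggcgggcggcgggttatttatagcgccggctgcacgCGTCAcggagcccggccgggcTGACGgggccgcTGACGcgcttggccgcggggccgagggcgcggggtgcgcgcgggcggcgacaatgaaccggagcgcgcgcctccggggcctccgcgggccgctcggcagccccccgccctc
Nr4a3, chr4:48045055-48045304, plus strand: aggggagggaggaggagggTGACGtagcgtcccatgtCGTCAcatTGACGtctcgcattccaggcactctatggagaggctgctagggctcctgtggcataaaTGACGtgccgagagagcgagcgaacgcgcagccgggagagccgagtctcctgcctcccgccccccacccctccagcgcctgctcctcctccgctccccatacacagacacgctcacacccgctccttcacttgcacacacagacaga
Egr2, chr10:67537792-67537821, plus strand: tcagtCCATATATGGgcagcgaCGTCAcgg
In Nr4a1 the capitals include 1 match to GCGGGGGCG on the other strand, 60 bases before the start. No match overlapped another in these 4 sequences.

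On most arrays these genes were bright. The Egr1 level ran from -1.13 to 6.68 over the 38 arrays, with a median of 5.50, and its spot was saturated on 10 arrays. Egr2 ran from -2.59 to 4.93 with a median of 3.19. Nr4a1, also called Nur77, ran from 0.01 to 7.03 with a median of 6.29 and was saturated on 17 arrays, where its value is a lower limit, though not on the array with the highest value (HF5 week 18). Nr4a2 ran from -2.34 to 3.39 with a median of 2.18. Klf2 ran from 2.96 to 7.01 with a median of 5.84 and was saturated on 7 arrays, and Klf4 from 2.63 to 6.80 with a median of 5.80, saturated on 9. The highest Klf2 value lay on the dim LFC week 3 array, and the lowest Klf4 value on LFC day 14, the array with many outlying spots. Ier2 ran from 0.52 to 5.61 with a median of 4.51, and Ier3 from -2.56 to 3.82 with a median of 2.13. The remaining genes of the set were dim. Nr4a3 was well above background on 22 of 38 arrays. Egr3 was well above background on 6 of 38 arrays, its highest value of 0.36 being the raised background of the dim LFC week 3 array. It was tested only in the alternative without a filter on dim probes, where no comparison called it.

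**Figure D1:**
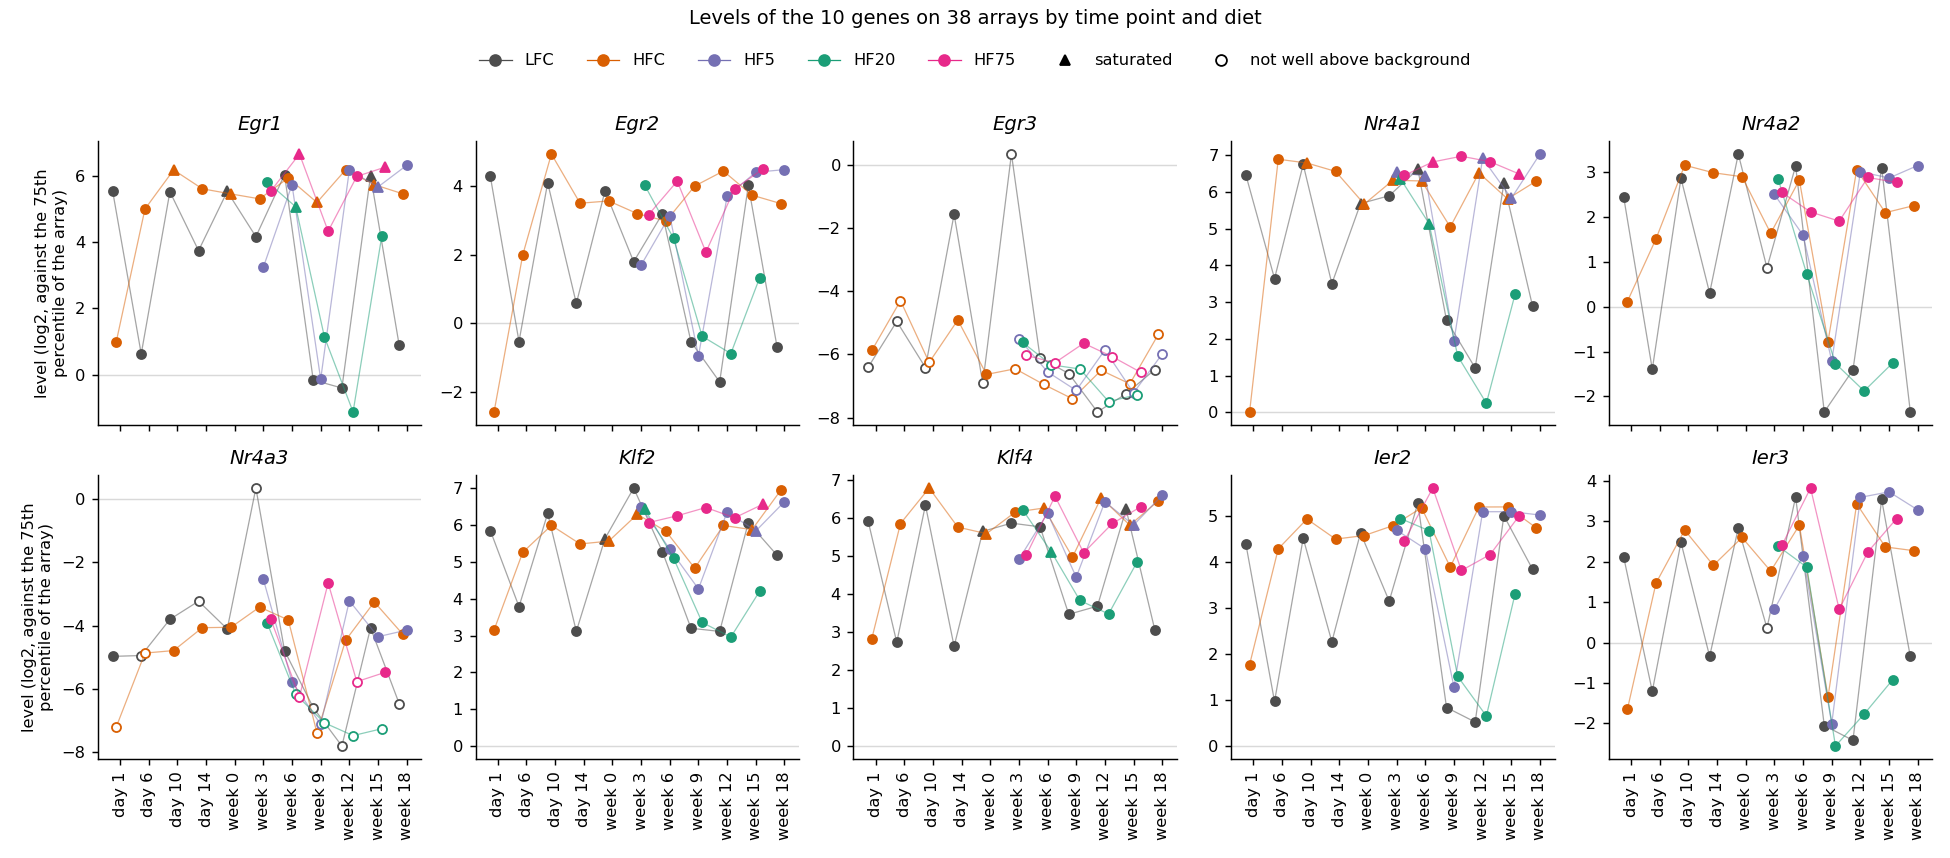
Level of each of the 10 genes (log2 intensity over the array's own 75th percentile) against time point, 1 point per array, coloured by diet. Triangles are saturated spots and open points are not well above background. Deep drops that several genes share are visible on the same arrays, such as HFC day 1, LFC week 12 and HF20 week 12.

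The Egr1 level fell into separate ranges. On 8 arrays it was at most 1.14, and on the other 30 it was at least 3.25 (HF5 week 3), with no array in the 2.11 units between. The 8 low arrays were LFC at day 6 (0.62) and weeks 9 (-0.17), 12 (-0.41) and 18 (0.88), HFC at day 1 (1.00), HF5 at week 9 (-0.14), and HF20 at weeks 9 (1.14) and 12 (-1.13). No HF75 array was among them. On the 7 low arrays other than LFC week 18, the summed level of 12 adipocyte markers (Adipoq, Plin1, Lep and others) was 8.80 to 10.4. Of all 38 arrays, 9 had an adipocyte level at least that high, and the remaining 2 were HFC day 6 (10.9), where Egr1 was 5.01, and HF20 week 15 (9.09), where Egr1 was 4.19. The median adipocyte level of the 30 arrays above the gap was 7.67. Across all 38 arrays the correlation of Egr1 with the adipocyte level was r = -0.29, without the 3 LFC arrays it was -0.57, and among the 30 arrays above the gap it was -0.09. Some arrays share a diet or a scan day, so these values are descriptions, and the part of adipocyte RNA in the Egr1 levels was not tested.

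**Figure D2:**
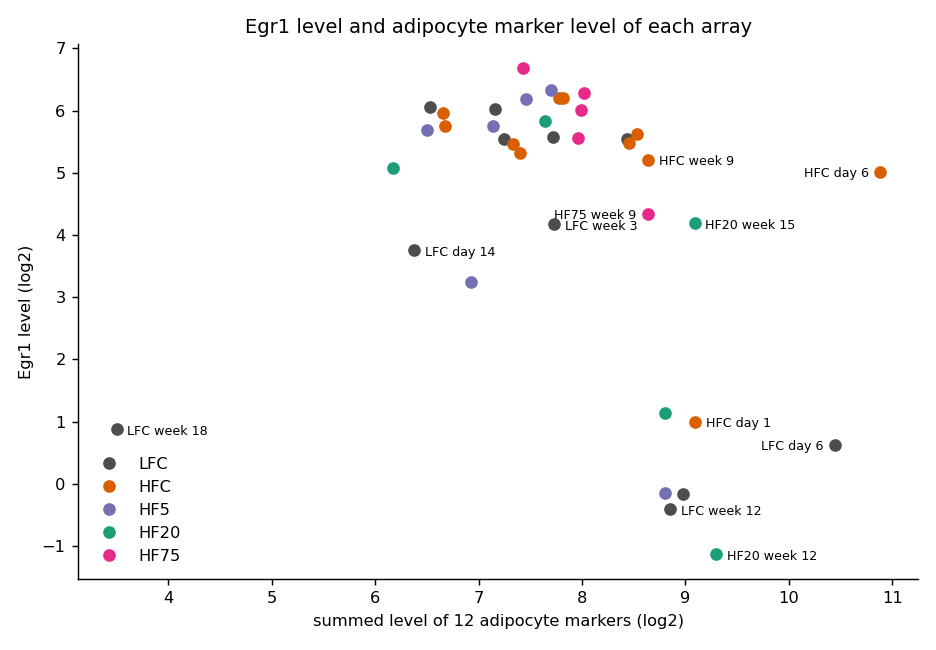
Egr1 level against the log2 of the summed level of 12 adipocyte markers, 1 point per array, coloured by diet. The 8 arrays with Egr1 at or below 1.14 lie apart from the other 30, and 7 of them have an adipocyte level of 8.80 or more.

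Over all arrays the other genes went up and down with Egr1. Over the 38 arrays the correlation with Egr1 was r = 0.94 for Egr2, 0.93 for Ier2, 0.90 for Nr4a1, 0.90 for Ier3, 0.87 for Nr4a2, 0.86 for Klf4, 0.79 for Klf2 and 0.49 for Nr4a3. The 36 pairs among the 9 measured genes had r from 0.43 to 0.94, with a median of 0.85, and 0.56 to 0.97 without the 3 LFC arrays. Among the 30 arrays above the Egr1 gap r ran from -0.33 (Egr1 with Nr4a3) to 0.86 with a median of 0.62, and among the 8 arrays below it from -0.75 to 0.82 with a median of 0.24, although a split by the Egr1 level narrows its range and by itself lowers these values. Of 20145 other genes, Fos (r = 0.957), Fosb (0.942), Gem (0.926), Cxcl1 (0.924) and Socs3 (0.917) followed Egr1 most closely. Fos and Fosb are AP-1 subunits, Gem is a small GTPase induced in activated cells, Cxcl1 is a neutrophil chemokine and Socs3 is a feedback inhibitor of cytokine signalling. Of the cell type lists, the endothelial level had r = 0.58 with Egr1 over 38 arrays, 0.56 without the 3 LFC arrays and 0.87 over the 30 above the gap. The neutrophil level had 0.46, 0.64 and 0.0043 over the same arrays, and the fibroblast level 0.43, 0.48 and 0.64. The 30 arrays include LFC week 3 and day 14, and over them the correlation of ranks was 0.67 for the endothelial and 0.53 for the fibroblast level. For the brightness of the array, over the same 3 sets of arrays, r was -0.17, -0.33 and 0.15 with the 75th percentile and -0.05, -0.14 and 0.25 with the percent of probes well above background.

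The first comparison asked how the high-fat diet changed these genes against the low-fat diet of the same time point. No gene of the set passed the test with limma (0 of 9 tested, and 0% of 29215 probes). Egr1 in LFC had a lowest level of -0.41, a median of 4.17 and a highest of 6.05, and in HFC 1.00, 5.47 and 6.20. The ranges overlapped, although 4 LFC arrays and 1 HFC array lay below the gap. The mean Egr1 level was 3.42 ± 2.64 (SD, n = 11) in LFC and 5.20 ± 1.45 (SD, n = 11) in HFC, a difference of 1.78 (SE 0.85, 95% interval -0.03 to 3.60, limma adjusted p = 0.929), and HFC was higher at 7 of the 9 time points where the arrays have an order. A pair has no order where the higher value was not well above background or the lower one was saturated. Ier2 had a difference of 1.24 with an unadjusted limma p of 0.043 and an adjusted p of 0.929, and was higher in HFC at 8 of 11 time points. The other differences were 1.36 for Egr2, 1.19 for Nr4a2, 1.06 for Klf4, 0.98 for Nr4a1, 0.90 for Ier3, 0.61 for Klf2 and -0.11 for Nr4a3, which was well above background on 5 of 11 LFC arrays and 8 of 11 HFC arrays and had no order in 4 of 11 pairs. The median over the other 8 genes was 1.13, against -0.12 over all probes, and at an unadjusted p under 0.05 the fit held 746 probes. Of a list of 8 AP-1 genes, 7 also had differences above 0 (median 0.95), as had 29 of 30 tested genes of a wider early response list (median 0.88). Among cell type markers, the differences of 8 of 8 fibroblast (median 1.17) and 7 of 7 endothelial markers (median 1.01) were above 0. Those of 4 of 4 epithelial markers were below 0 (median -1.95). Of the adipocyte markers 9 of 12 lay above 0 (median 0.75), while 6 of 6 neutrophil markers (median -0.67) and 5 of 5 B cell markers (median -0.56) lay below 0. None of these was called, and their part in the result was not tested. Without LFC week 3, day 14 and week 18, the Egr1 difference was 1.50, and those of Nr4a1, Nr4a2 and Ier3 were 0.49, 0.63 and 0.46. Without 1 time point at a time, the differences ran from 1.30 to 2.42 for Egr1, 0.88 to 2.18 for Egr2 and 0.55 to 1.72 for Nr4a1. They ran from 0.41 to 1.37 for Ier3, 0.38 to 0.94 for Klf2 and -0.45 to 0.26 for Nr4a3, and no gene was called.

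The mean difference hid opposite values at single time points. On day 1 all 9 genes were lower in HFC (median -3.10), with Egr1 at 1.00 against 5.57 and Nr4a1 at 0.01 against 6.46. On day 6 all 8 genes with an order were higher in HFC (median 3.02), with Egr1 at 5.01 against 0.62. At week 0 differences ran from -0.51 to 0.05 for the 5 genes with an order, and Egr1, Nr4a1, Klf2 and Klf4 were saturated on both arrays. At week 12 all 9 were higher in HFC (median 4.68), and Egr1 was 6.20 against -0.41. At week 18 all 9 were again higher in HFC (median 3.40), where the LFC array is the one with few fibroblast and high neutrophil and erythroid markers. At weeks 6 and 15 the medians were -0.10 and -0.28 over the 8 and 5 genes with an order. On day 14 and at weeks 3 and 9 all genes with an order were higher in HFC (medians 2.53, 1.15 and 2.08). The LFC array of day 14 is the one with many outlying spots and that of week 3 the dim one, and both week 9 arrays carry the letters WS in their titles. On day 10, 7 of 9 were higher (median 0.30). Each of these differences is between 1 array and 1 array and has no replicate error. The arrays shared a slide at day 6 and at weeks 0, 3 and 9, and over those 4 pairs the Egr1 difference was 2.71. Those pairs include the dim LFC week 3 array and the WS arrays of week 9. In 5 pairs the Egr1 levels lay on either side of the gap. The summed adipocyte level of the low and the high array was 9.09 and 7.72 on day 1, 10.4 and 10.9 on day 6, 8.98 and 8.64 at week 9, 8.85 and 7.82 at week 12, and 3.50 and 8.46 at week 18, so the low array had more in 3 of the 5.

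**Figure D3:**
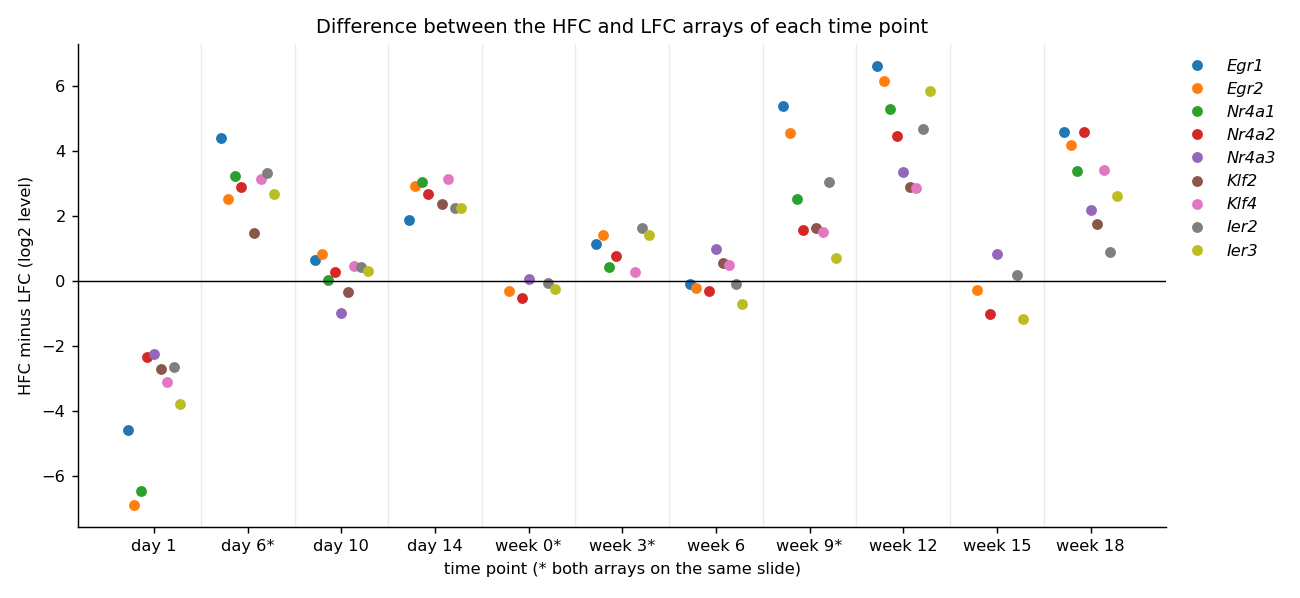
Difference HFC minus LFC (log2) for each gene at each of 11 time points, 1 array against 1 array, with an asterisk at the time points where both arrays shared a slide. Pairs without an order are left out (the higher value not well above background, or the lower one saturated). Day 1 lies below 0 for all 9 measured genes, and week 12 and week 18 lie above 0, as do the 8 genes shown at day 6.

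No gene of the set passed the test for a change with time or for a diet effect that differed between periods. Weeks 3 to 18 against day 1 to week 0, over the 22 LFC and HFC arrays, gave 0 of 9 calls, where 0.0033% of probes were called, with differences from -0.82 (Nr4a2) to 0.45 (Klf2) and a median of -0.06. Without the 3 LFC arrays there were also 0 of 9 calls, with differences from -0.67 to 0.23, while 6 probes were called higher and 27 lower. The diet difference of weeks 3 to 18 minus that of the earlier period was above 0 for the 8 genes other than Nr4a3, from 0.64 (Klf4) to 2.80 (Egr2), with 0 calls and 0% of all probes called by limma. Nr4a3 was well above background on 5 of 11 LFC arrays, so its fitted value, 1.25 and also above 0, rests in part on raised backgrounds. The median of the 8 was 1.14, against -0.54 over all probes, 0.90 over 8 AP-1 genes and 1.11 over 30 wider early response genes. It leaned on day 1, without which Klf4 was at -0.31, Klf2 at 0.12, Ier3 at 0.20, Nr4a1 at 0.24 and Ier2 at 0.25. In the same fit Nr4a2 was at 0.33, Egr2 at 1.13 and Egr1 at 1.18. Without the 3 LFC arrays the 8 genes ran from 1.01 (Klf4) to 3.50 (Egr2), against -0.18 over all probes. With all arrays the median was 3.79 for T cell markers (5 of 6 above 0), 3.49 for B cell markers (5 of 5), 1.85 for fibroblast markers (8 of 8) and 0.97 for macrophage markers (10 of 10), none of them called, and their part was not tested. With normexp background correction the all-probe median moved to 0.73, 4934 probes were called higher and 80 lower, and the 8 genes, of which 0 were called, had differences from 0.56 to 2.41. With quantile normalization the all-probe median was 0.03, 0 probes were called, and the 8 genes ran from 1.15 to 3.39.

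Among the comparisons of groups, the set had called genes at week 9 alone. The titles of 4 arrays of that week (LFC, HFC, HF5 and HF20) carry the letters WS, which the labels do not explain. They were compared with the 8 arrays of weeks 6 and 15 of the same diets. Earlier results of these data were known to differ at week 9 when this comparison was chosen. Its p-values are therefore not those of a comparison chosen without sight of the data. Here 7 of the 8 genes measured on both sides fell, where limma called 7.11% of probes in either direction and 2.48% lower. With the slide as a random block 0 genes and 0 probes were called. Ier3 fell by 4.40 (SE 0.58, adjusted p = 0.0381), a 21.0-fold drop, and Egr1 by 4.05 (SE 0.75, adjusted p = 0.0381). Nr4a2 fell by 3.28, Nr4a1 by 2.93, Ier2 by 2.88, Klf4 by 1.57 and Klf2 by 1.53, with adjusted p of at most 0.0388. Nr4a1 was saturated on 7 of the 8 arrays of weeks 6 and 15, Klf4 on 5, Egr1 on 4 and Klf2 on 2, where their values are lower limits. Nr4a3 was not well above background on all 4 WS arrays nor on 2 of the other 8, so its fitted difference of -2.12 (adjusted p = 0.0453) rests on raised backgrounds and is left out of the count, and with normexp it was -0.30 and not called. Egr2 had a difference of -2.63 with an adjusted p of 0.0627 and was not called. The median difference of the 8 genes was -2.91, against 0.02 over all probes.

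The diets were not alike within these 4 arrays. The Egr1 level was -0.17 in LFC, -0.14 in HF5, 1.14 in HF20 and 5.21 in HFC, where the spot was saturated, and over the 8 arrays of weeks 6 and 15 it ran from 4.19 to 6.05 with a median of 5.75. The HFC array therefore lay within the range of the other weeks for Egr1, and the other 3 lay below it. The Nr4a1 level was 2.50 in LFC, 1.95 in HF5, 1.53 in HF20 and 5.04 in HFC, against 3.21 to 6.61. For Ier3 all 4 arrays lay below the other 8, at -2.05 in LFC, -1.35 in HFC, -2.01 in HF5 and -2.56 in HF20, against -0.92 to 3.73. Nr4a2 was at -2.34 in LFC, -0.78 in HFC, -1.21 in HF5 and -1.27 in HF20, and 7 of the other 8 arrays were above these, while HF20 week 15 lay at -1.25. The HF75 array of week 9 has no WS in its title and was scanned on another day, and it had Egr1 at 4.34, Nr4a1 at 6.97, Nr4a2 at 1.90 and Ier3 at 0.82.

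**Figure D4:**
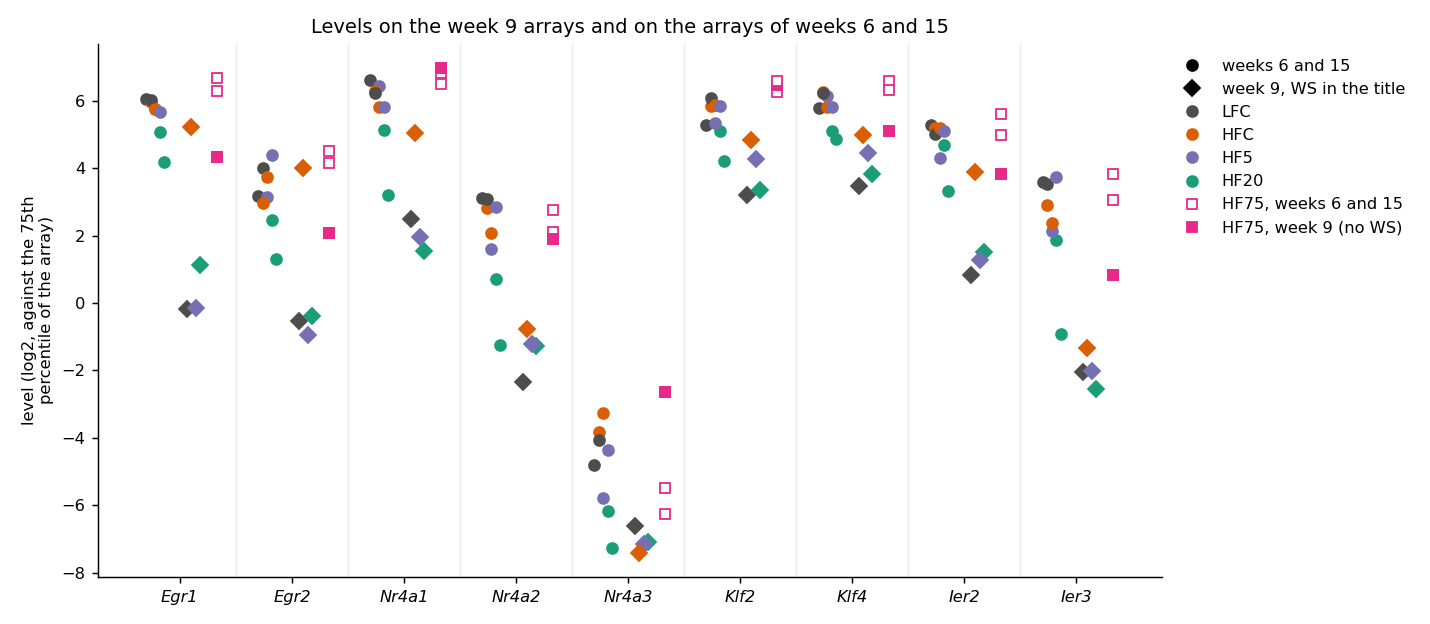
Level of the measured genes on the 4 week 9 arrays with WS in their titles and on the 8 arrays of weeks 6 and 15 of the same diets, 1 point per array, with the HF75 arrays of weeks 6, 9 and 15 as squares beside them (week 9 filled). For Ier3 the WS arrays (-2.56 to -1.35) lie below all 8 others, while for Egr1 the HFC array (5.21) lies among them.

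Related early response genes fell on the same arrays, although with the slide as a random block 0 probes of any list were called. Of 8 AP-1 genes 6 fell, led by Fos (-6.11), Fosb (-5.22) and Atf3 (-4.72), against 2.48% of all probes. Of 30 tested genes of a wider early response list 17 fell, led by the prostaglandin synthase Ptgs2 (-5.84), Socs3 (-4.43) and the NF-kB regulator Nfkbiz (-4.18). Of 15 regulators upstream or around the Egr and Nr4a genes (the Nab corepressors, Srf, Elk and Mef2 factors, Creb1, Crem and MAP kinases), 0 were called, with differences from -0.88 to 0.80. Among cell type markers, 9 of 12 adipocyte genes rose, led by Lep (6.36), Retn (6.29) and Plin1 (5.51), against 4.63% of all probes called higher, and the summed adipocyte level was 8.64 to 8.98 on the WS arrays and 6.18 to 9.09 on the others. Of 10 macrophage markers 1 fell (Cd14), of 8 fibroblast markers 2 (Fbln1 and Pdgfra), of 7 endothelial markers 1 (Vwf), of 6 neutrophil markers 1 (Ltf) and of 5 epithelial markers 1 (Krt14). Beyond these calls, all 5 epithelial markers had differences from -5.27 to -4.28, all 6 neutrophil markers were below 0 (median -2.06), as were 4 of 4 B cell markers (median -1.46) and 4 of 6 T cell markers (median -1.25). The part of these cell types in the result was not tested.

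The week 9 calls rested on the choice of arrays. Against weeks 6, 12, 15 and 18 in place of weeks 6 and 15, 0 genes and 0 probes were called. The 4 WS arrays lie on 2 slides that were scanned on 1 day with 0 other arrays, so scan day and group cannot be told apart, and the slide correlation in the random block was 0.758. Without 1 array at a time, the count with Nr4a3 included, 8 over all 12 arrays, ran from 0 to 9 and was 0 in 9 of 12 cases, while all 9 differences stayed below 0 in all 12 (Egr1 from -5.18 to -3.33, adjusted p of 0.00786 to 0.189).

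Kal-1 was compared with the high-fat diet of the same weeks, to see whether it altered the early response genes. The 3 doses share their HFC arrays, so their values stand side by side. With 5 µg, 0 of 9 genes and 0% of probes were called over 6 weeks, with differences from -1.14 (Egr1) to 0.14 (Nr4a2) and a median of -0.26. The Egr1 level in HF5 had a lowest value of -0.14, a median of 5.71 and a highest of 6.34. The lowest was the WS array of week 9, and without that week the Egr1 difference was -0.30. Differences of 5 of 5 epithelial markers were above 0 (median 2.76) and those of 8 of 10 macrophage markers below 0 (median -0.43). None of these was called, and their part was not tested.

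With 20 µg, the differences of the 8 genes measured in both groups were below 0, from -1.25 for Klf4 to -2.69 for Nr4a1, with a median of -1.98 against 0.08 over all probes. Nr4a3 was well above background on 1 of 5 HF20 arrays and 4 of 5 HFC arrays, so its fitted difference of -1.92 rests on raised backgrounds. None passed the test (0 of 9, 0% of 30831 probes, limma adjusted p = 0.409 for each). At an unadjusted p under 0.05 there were 7 of the 8 genes, all but Nr4a2, against 11.6% of probes. The Nr4a1 level in HF20 was 6.36 at week 3, 5.14 at week 6, 1.53 at week 9, 0.25 at week 12 and 3.21 at week 15, and in HFC it was 6.31, 6.29, 5.04, 6.51 and 5.80. The Egr1 level in HF20 was 5.84, 5.08, 1.14, -1.13 and 4.19 at these weeks, and in HFC it was 5.32, 5.95, 5.21, 6.20 and 5.75. HF20 lay below HFC at weeks 9, 12 and 15 for both genes, most of all at week 12, while at week 6 both HF20 spots were saturated, as were both Nr4a1 spots at week 3. Egr1 had a difference of -2.67 (95% interval -5.30 to -0.03) and Nr4a1 of -2.69 (95% interval -4.77 to -0.62). Week 12 weighed most, and without it the difference was -1.50 for Egr1 and -1.80 for Nr4a1, while without week 9 it was -2.31 and -2.49.

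In the same comparison 8 of 8 AP-1 genes and 29 of 30 wider early response genes had differences below 0, with medians of -1.74 and -1.79, and 11 of 12 adipocyte markers had differences above 0, with a median of 1.69. Other marker lists lay below 0 as well, with 10 of 10 macrophage markers (median -0.59), 8 of 8 fibroblast (-0.63), 7 of 7 endothelial (-0.70), 6 of 6 neutrophil (-0.80), 4 of 4 B cell (-1.27) and 4 of 6 T cell markers (-1.75). None of these was called. The summed adipocyte level was 6.18 to 9.29 in HF20 and 6.66 to 8.64 in HFC, with 9.29 at week 12 and 9.09 at week 15 in HF20, and the part of these lists in the differences was not tested. HF20 and HFC shared no slide, but shared a scan day at weeks 6, 9, 12 and 15.

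With 75 µg, none of 9 genes was called, where 1.05% of probes were, although without the block on time points 0 probes were called higher and 1 lower. That share varied, with 14 probes called higher and 0 lower without week 3, and 193 and 45 without week 9. With no filter on dim probes it was 7434 and 895 of 40628, and 0 genes of the set were called in each of these fits. With the filter and all weeks, the differences ran from -0.32 (Nr4a3) to 0.71 (Nr4a1), with a median of 0.08. The Nr4a3 value rested on week 9, where HF75 was at -2.65 and HFC not well above background. HF75 was lower for this gene at the other 4 weeks, and without week 9 the difference was -1.59 and not called. The Egr1 level in HF75 was 5.56, 6.68, 4.34, 6.00 and 6.28 at weeks 3, 6, 9, 12 and 15, a difference from HFC of 0.08 (95% interval -0.62 to 0.79). The Nr4a1 level was 6.44, 6.81, 6.97, 6.82 and 6.49, with a fitted difference of 0.71 from HFC ( 95% interval -0.03 to 1.46, limma adjusted p = 0.364). Its spot was saturated on 2 of the 5 HF75 arrays and on 4 of the 5 HFC arrays, all but week 9, so those values are lower limits and week 9 alone has an order. At week 9 the HFC array has WS in its title and the HF75 array does not, and they were scanned on different days. For Nr4a1 and Nr4a3 the dose cannot be told apart from these at that week. HF75 and HFC shared a scan day at weeks 12 and 15 only, and never a slide. Without week 9 the Nr4a1 difference was 0.41, and with quantile normalization it was 0.01. Differences of 9 of 10 macrophage markers were below 0 (median -1.12) and those of 5 of 6 neutrophil markers above 0 (median 0.94). None of these was called, and their part was not tested.

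The doses of 20 and 75 µg were then set against each other at their 5 shared weeks, a comparison added after the values were seen. The 8 genes measured in both groups had differences above 0 (75 minus 20 µg), from 1.07 (Klf4) to 3.41 (Nr4a1), with a median of 2.43 against -0.09 over all probes. None passed the adjusted threshold, where 0.395% of probes did, with limma adjusted p from 0.120 to 0.242, and 7 of the 8, all but Klf4, had an unadjusted p under 0.05, against 24.1% of probes. Nr4a3 was well above background on 3 of 5 HF75 arrays and 1 of 5 HF20 arrays, and its fitted difference was 1.60. Ier3 had the smallest p, with a level of 2.40, 3.82, 0.82, 2.24 and 3.06 in HF75 and 2.39, 1.86, -2.56, -1.77 and -0.92 in HF20 at weeks 3, 6, 9, 12 and 15 (difference 2.67, SE 0.61, 95% interval 1.22 to 4.11). HF75 was higher at 5 of 5 weeks for Ier3, by 0.02 at week 3, and at 4 of 5 for Egr2, Nr4a2, Klf2 and Ier2. Spots saturated in HF20 leave 4 weeks with an order for Egr1 and Klf4, with HF75 higher in 3, and 3 weeks for Nr4a1, with HF75 higher in 3. Leaving out week 3 brought 1 gene, Ier3, past the threshold, in a fit that called 216 probes higher and 95 lower of 32740, against 119 and 3 of 30893 with all weeks. Leaving out week 6, 9 or 15 left 0 probes called, and leaving out week 12 left 110 higher and 0 lower. With all weeks, 8 of 8 AP-1 genes (median 2.02) and 30 of 30 wider early response genes (median 1.74) had differences above 0, and 0 were called. The medians of the neutrophil, T cell and B cell markers were 2.04, 1.76 and 1.58, and 10 of 12 adipocyte markers lay below 0 (median -1.17), none of them called, and their part was not tested. At weeks 3, 12 and 15 the arrays of both doses shared a scan day, and they never shared a slide. The HF20 array of week 9 has WS in its title and the HF75 array does not, so at that week dose and WS cannot be told apart.

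**Figure D5:**
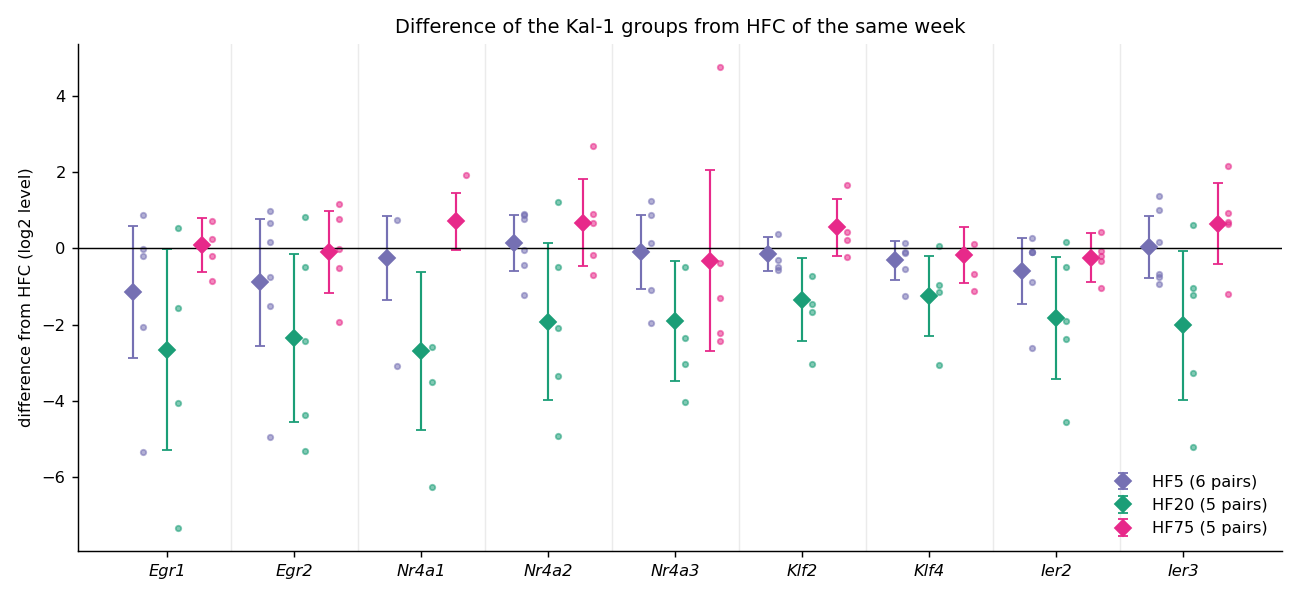
Difference of each Kal-1 dose from HFC (log2) for the 9 measured genes, with the fitted value and its 95% interval as diamonds and bars and each week with an order as a dot. The fitted 20 µg values lie between -2.69 and -1.25, where that of Nr4a3 rests on raised backgrounds, and those of 5 and 75 µg lie between -1.14 and 0.71.

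For Klf2 and Ier2 the probe mattered. The brighter Klf2 probe fell by 1.53 on the WS arrays, while the second had a difference of 0.51 in the other direction, and the probes had r = -0.25 over 38 arrays, so values for Klf2 belong to 1 probe. The second Ier2 probe followed the first (r = 0.94 over 36 arrays, difference -3.55), and the last, dim probe less so (r = 0.56, difference -1.63).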

How the data were processed

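Total RNA of SVCs was measured on 40 1-colour arrays, of which 38 could be assigned a diet and a time point from the labels. The intensities the authors deposited come from Feature Extraction 10.5.1.1 per the file headers, with background subtracted and no normalization between arrays; the submitters' processing notes name version 9.1. From a deposited table of the authors' log2 fold changes only the probe names and symbols were taken, and none of its 40 value columns. Intensities were read in Python 3.11.15 with pandas 2.3.3, divided by the 75th percentile of the array and put on the log2 scale. Duplicate spots were averaged, outlying spots dropped, and probes not well above background raised to the lowest level that was on that array. Where a gene had several probes, the one with the highest mean was used. Comparisons used limma 3.58.1 in R 4.3.3 on probes that passed this background test on 50% or more of the arrays of 1 side, with the time point as a block (for week 9 and for periods, the diet), which pairs arrays of the same time because the labels give it. The Benjamini-Hochberg adjustment ran over all probes tested, with a threshold of 0.05. Fits were tested on simulated data. The number of arrays limits the precision.

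Genes named were the 10 of the set, the 5 closest to Egr1, and at most 3 called genes per further list and direction. The set, all lists and the week 9 comparison were chosen with earlier results of these data known. Alternatives were normexp background correction (offset 50), quantile normalization, other filters, the mean of all probes, the slide as a random block, no block, pairs on 1 slide, and leaving out arrays, time points or week 9. Leaving out the LFC array of week 18 was chosen after seeing the data.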

Additional observations from a re-analysis of the deposited data

Results flagged for a closer look

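In groups of 4 to 10 arrays, single arrays far from the rest of their group were looked for with Dixon's test. Among 26 tested combinations of gene and diet, 3 stood out, where chance gives about 1 in 20. All 3 were the HF5 array of week 9, the lowest of 6 HF5 arrays for Nr4a1 (1.95), Nr4a2 (-1.21) and Ier2 (1.28). It is also 1 of the 4 arrays with WS in their titles.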

How the results depend on the processing

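The count of 0 genes called held for the HFC, HF5, HF20 and HF75 comparisons, for the change between periods and for the interaction under each alternative that was run, and without 1 time point or array at a time it ran from 0 to 0. Without the block on time points, which pairs the diets, 0 genes were called in the comparisons of HFC, HF5, HF20 and HF75 and of the doses of 20 and 75 µg, and the block changed no call among these genes. Over all probes of HF75 against HFC, 243 were called higher and 60 lower with it, and 0 and 1 without it. For 75 against 20 µg, leaving out 1 time point at a time gave 0 to 1 genes. For week 9, where counts here include Nr4a3 if it was tested, leaving out 1 array gave 0 to 9 genes. There were 8 without HF20 week 9 (1929 probes higher and 1689 lower), 9 without HF20 week 15 (3679 and 3020), 1 without HFC week 9 (0 and 4) and 0 otherwise, against 1451 and 778 probes over all 12 arrays. The slide as a random block gave 0 (correlation 0.758), and weeks 6, 12, 15 and 18 as the comparison also gave 0, while the other 6 alternatives gave 7 or 8, not always of the same genes. With probes well above background on all arrays, Nr4a3 was not tested and Egr2 was called (adjusted p = 0.0444, limma). The cause was not tested. Of 1327 differences of single genes under alternatives, 99 lost a call, all at week 9, 3 gained one and 0 called differences changed sign, while 89 uncalled ones did. The slide as a random block could not be run for HF20 and HF75 against HFC, which share no slide. Dim signal limits Nr4a3, which with normexp had a week 9 difference of -0.30, and Egr3. Saturated spots compress differences at the top of Egr1, Nr4a1, Klf2 and Klf4.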
